A study of Mus musculus with 6 samples.

Results

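Hippo pathway genes and targets of the co-activators YAP and TAZ were followed in diploid and tetraploid mouse hepatocytes. They were chosen from a list of 50 genes, 26 kinases and regulators, 6 YAP, TAZ and TEAD factors and 18 targets. A gene was measured where a probe set was annotated to its symbol alone, and the brightest probe set stood for it. That held for 40 of the 50 genes, out of 12393 genes on the arrays. Ctgf and Cyr61 are given under their official names Ccn2 and Ccn1. Stk3, Fat1, Fat4, Dchs1, Taok2, Amotl1, Arhgef17, Nuak2, Rbms3 and Spp1 had no such probe set and were not analysed here.

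The liver cells came from wild-type C57BL/6 mice at 3 weeks of age. They were freshly isolated, labelled with the DNA dye Hoechst and separated by flow cytometry on DNA content into a diploid and a tetraploid fraction, with RNA taken straight after the sort and 3 Affymetrix arrays per fraction. Sorting on DNA content can also place diploid cells in G2 or mitosis with the tetraploid ones. The replicates are labelled biological without naming animals, so p-values speak only to sample-to-sample spread, part of which may be technical.

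In Hippo signalling a kinase relay of MST and LATS enzymes phosphorylates YAP and TAZ, which keeps them out of the nucleus. When the relay is quiet, YAP and TAZ bind TEAD proteins on DNA and switch on genes of growth, matrix and cell shape. In the liver this pathway limits organ size and hepatocyte proliferation, and extra centrosomes in cells that fail to divide can activate LATS kinases. Much of the control acts through phosphorylation of proteins, which arrays of RNA do not measure.

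Values are log2 intensities of probe sets that the authors had brought to nearly the same distribution on all arrays. A difference in total RNA per cell between the fractions was thereby removed. A fall in the number of cells of a type cannot be told apart from less RNA per cell in such bulk samples. A gene was called above background when its mean over the 6 arrays exceeded 6.53, the 95th percentile of 64 measured genes known from lens, brain, testis, muscle and other tissues outside the liver. Probe sets differ in how well they bind, so this call is approximate, and levels of different genes are not compared. Genes below 5.06, the lowest 25%, were left out of the test as dim.

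TEAD proteins recognise the letters GGAATG, or CATTCC on the other strand. The 250 bases before a transcript start of 4 members are shown from a RefSeq promoter table on GRCm38.p6, in the direction of the gene, because each holds these letters (in capitals) while the genes lie on opposite sides of the background level. Ccn1 and Amotl2 were above background and Ankrd1 and Axl were not.

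Ccn1, chr3:145649986-145650235, minus strand: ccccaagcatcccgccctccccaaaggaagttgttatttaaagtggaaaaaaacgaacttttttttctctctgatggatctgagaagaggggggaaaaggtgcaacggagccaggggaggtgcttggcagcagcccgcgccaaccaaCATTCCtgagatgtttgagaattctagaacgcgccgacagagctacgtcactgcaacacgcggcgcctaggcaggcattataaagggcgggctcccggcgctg
Amotl2, chr9:102717554-102717803, plus strand: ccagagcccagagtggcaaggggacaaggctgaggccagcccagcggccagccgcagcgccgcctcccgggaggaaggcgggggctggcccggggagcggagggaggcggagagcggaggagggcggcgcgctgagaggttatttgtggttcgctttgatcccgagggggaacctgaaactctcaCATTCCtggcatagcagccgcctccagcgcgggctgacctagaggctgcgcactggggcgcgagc
Ankrd1, chr19:36119845-36120094, minus strand: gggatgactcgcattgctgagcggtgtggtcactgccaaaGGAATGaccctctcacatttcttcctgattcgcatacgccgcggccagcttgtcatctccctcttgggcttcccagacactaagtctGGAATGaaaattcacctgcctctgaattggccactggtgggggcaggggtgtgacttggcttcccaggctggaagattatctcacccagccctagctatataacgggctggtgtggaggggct
Axl, chr7:25788734-25788983, minus strand: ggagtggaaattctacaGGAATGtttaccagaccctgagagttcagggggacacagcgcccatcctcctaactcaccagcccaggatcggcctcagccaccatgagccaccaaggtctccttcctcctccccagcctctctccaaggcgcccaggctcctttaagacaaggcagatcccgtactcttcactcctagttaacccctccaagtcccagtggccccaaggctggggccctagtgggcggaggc

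For Ccn1 and Ankrd1 the listed start is the outer end of the RefSeq gene. For Amotl2 it lies 713 bases and for Axl 191 bases inside the gene, so the stretch shown lies wholly (Amotl2) or mostly (Axl) within the annotated gene. Counted to the listed start, the match began 103 bases before that of Ccn1, 65 before that of Amotl2 and 233 before that of Axl, and Ankrd1 had 2, at 210 and 123. Of 36 member promoters whose gene span was at hand, 24 had a listed start inside the gene and 12 at its outer end. The promoter table held 36 of the 50 members, and 15 of them (41.7%) had a match on either strand in any listed promoter, against 14.4% of 27025 genes. Counted by promoter, 17 of 44 member promoters (38.6%) held a match, against 12.6% of 32851 promoters of the same length, and some promoters of 1 gene overlap. Among members measured on the arrays, 10 of 20 above background and 4 of 10 not above background had a match. Targets did not stand apart from the components in this count, with 4 of 10 targets and 11 of 26 components. Wwc2, an upstream regulator, had 3 matches, and Yap1 itself had 1. Such matches are descriptions of letters and do not show binding.

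Most of the signalling apparatus was above background in these hepatocytes, and most of the textbook targets were not. Of 20 measured kinases and regulators, 16 were above background, as were 3 of 6 factors and 3 of 14 targets, against 54.8% of all genes. The targets above background were Ccn1, Nt5e and Asap1. The dim targets, named by their mean over 6 arrays, were Ccn2 at 4.63, Ankrd1 at 4.24, Axl at 4.32, Crim1 at 4.94, Tgfb2 at 4.52, Igfbp3 at 4.0, Myof at 4.21 and Thbs1 at 4.35. The labelled cell type was borne out by its markers, with 11 of 11 hepatocyte genes above background, compared with 2 of 11 cholangiocyte, 4 of 14 endothelial, 3 of 13 stellate cell and fibroblast, 1 of 11 Kupffer cell, 0 of 8 lymphocyte and 3 of 5 erythroid genes. The erythroid genes above background were Alas2, Epor and Klf1, and Hba-a1 and Slc4a1 were dim.

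**Figure D1:**
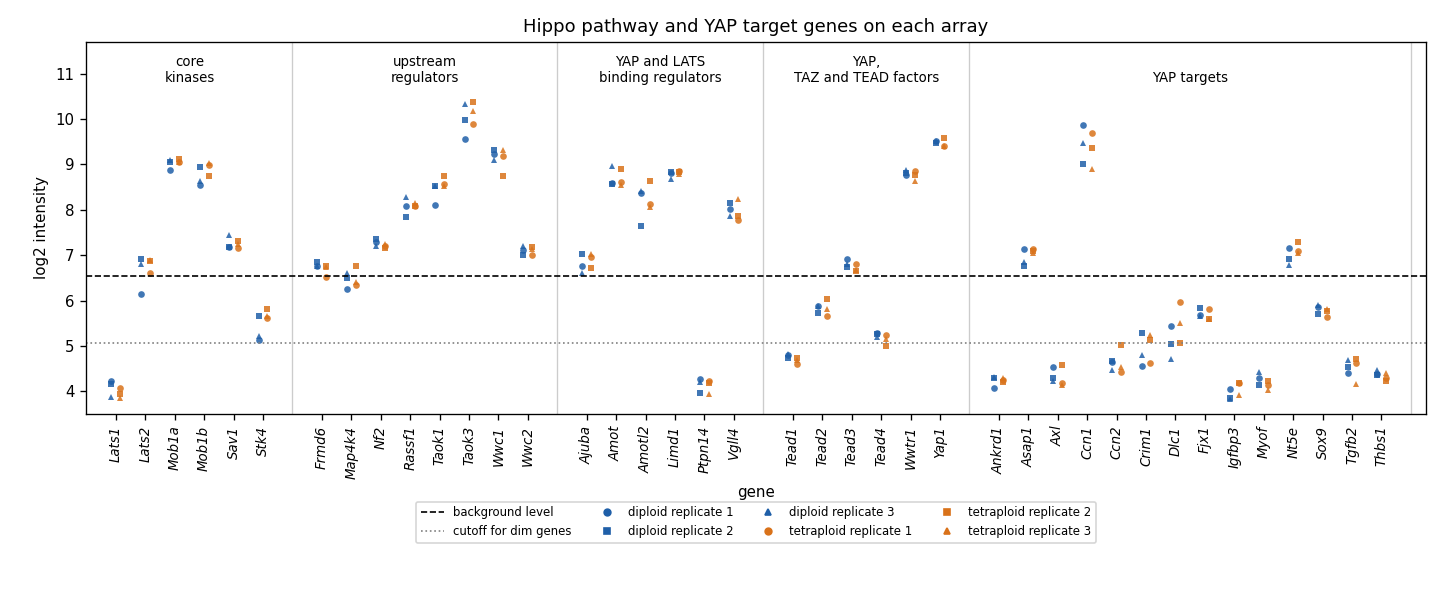
Log2 intensity (vertical axis) of the 40 measured genes (horizontal axis) on 3 diploid (blue) and 3 tetraploid (orange) arrays, with symbols for the replicate number. The dashed line is the background level of 6.53 and the dotted line the cutoff of 5.06 for dim genes, and 11 of the 14 targets lie below the dashed line.

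Between the fractions, 0 of the 29 members above the dim cutoff passed an adjusted p of 0.05 by limma, and the background was 0% of 9295 genes. The lowest adjusted p of any member was 0.779. At an unadjusted limma p under 0.05 there was 1 member, Stk4, or 3.45% of 29, against 6.18% of all genes tested. It was higher in tetraploid cells, as were 2.32% of all genes at that p, and 0 members were lower, against 3.85%. The fractions did not overlap for 1 member, Frmd6, against 12.3% of all genes tested. It was lower in tetraploid cells, against 7.08% of all genes, and 0 members were higher without overlap, against 5.22%. Of the 29, 16 had a higher mean in tetraploid cells, against 47.8% of all genes, and 13 had a lower one. The difference was under 0.25 either way for 27 of the 29, against 93.7% of all genes tested.

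The 95% interval of the difference, taken gene by gene, lay within a 1.5-fold change either way for 23 of the 29 members and within a 2-fold change for 28. Dlc1 was the exception at 2-fold. These bounds apply to array intensities, in which differences of dim genes are compressed. The absence of a call does not show that levels were equal.

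**Figure D2:**
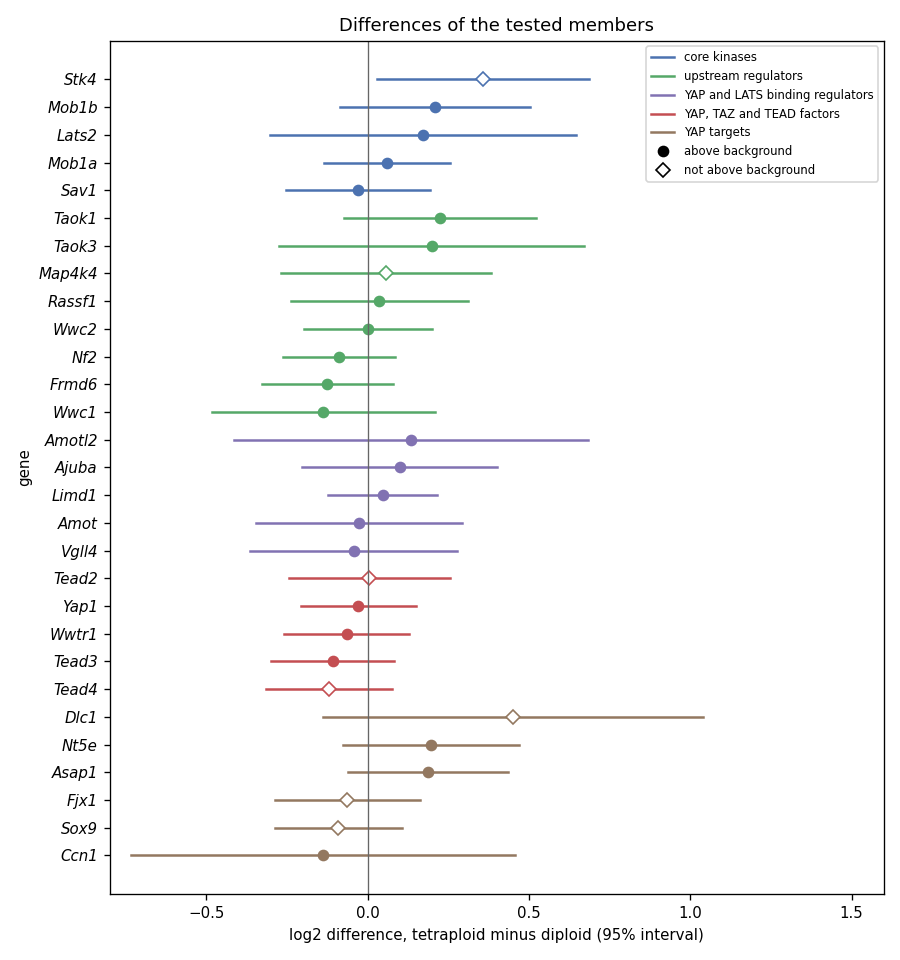
Log2 difference of tetraploid minus diploid (horizontal axis) with its 95% interval for the 29 tested members, coloured by role. Filled circles are genes above background and open diamonds genes that were not, and 28 of 29 intervals include 0, the exception being Stk4 at 0.36.

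The core of the relay was measured through 6 genes. Stk4 encodes MST1, which starts the phosphorylation relay. Its level was 5.13, 5.66 and 5.23 on diploid and 5.62, 5.81 and 5.66 on tetraploid replicates 1 to 3. Diploid replicate 2 reached the tetraploid range, and the other 2 diploid arrays lay below it. The difference was 0.36 ± 0.14 (SE, n = 3 per fraction), a 1.28-fold higher level with an interval from 1.02 to 1.61, an unadjusted limma p of 0.0364 and an adjusted p of 0.779. Stk4 was not above background and had a single probe set. Its difference ranged from 0.25 to 0.52 over the fits of the closing section, the highest without diploid replicate 2.

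Sav1, the scaffold that pairs MST with LATS, was at 7.19, 7.19 and 7.45 on diploid and 7.17, 7.32 and 7.25 on tetraploid arrays. The fractions overlapped, with a difference of -0.03 ± 0.10. Lats1, a kinase that phosphorylates YAP, was dim, at 4.24, 4.16 and 3.88 on diploid and 4.06, 3.95 and 3.85 on tetraploid arrays. Its paralog Lats2 was above background in the brightest of its 6 probe sets alone. That probe set has an _x_ suffix, so its probes may bind more than 1 transcript. It was at 6.13, 6.93 and 6.80 on diploid and 6.60, 6.88 and 6.89 on tetraploid arrays. Diploid replicate 1 was the low array, and the difference of 0.17 ± 0.20 was smaller than its error. The next brightest Lats2 probe set, not above background, was at 5.72, 6.31 and 6.74 on diploid and 6.02, 6.64 and 6.67 on tetraploid arrays. It was also lowest on diploid replicate 1. The 4 dimmer Lats2 probe sets, none above background, differed by 0.14, -0.08, -0.11 and 0.05, so the probe sets of Lats2 disagreed in direction. None of these 4 was lowest on diploid replicate 1.

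Mob1a and Mob1b encode near-identical activating partners of LATS. Mob1a was at 8.88, 9.06 and 9.11 on diploid and 9.05, 9.12 and 9.04 on tetraploid arrays, a difference of 0.06 ± 0.08. A dimmer Mob1a probe set was at 7.77, 7.79 and 7.77 against 7.96, 8.02 and 7.97, with fractions that did not overlap and a difference of 0.21 ± 0.07. The brightest probe set overlapped, as did the dimmest, which was not above background and differed by 0.26 ± 0.14. All Mob1a probe sets had a higher tetraploid mean but disagreed in size. Mob1b was at 8.55, 8.95 and 8.64 on diploid and 8.99, 8.76 and 9.03 on tetraploid arrays, a difference of 0.21 ± 0.13 with overlapping fractions.

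As a group, 4 of the 5 tested core genes had a higher and 1 a lower mean in tetraploid cells, with 0 called by limma. Their median difference was 0.17, beside -0.0064 over all genes tested. The median rested on a single array, diploid replicate 1. Without it Stk4 and Mob1b still had a higher tetraploid mean, by 0.25 and 0.13, and Lats2, Mob1a and Sav1 a lower one. The mean of the 5 genes, each set relative to its average over 6 arrays, was -0.29, 0.09 and -0.02 on diploid and 0.02, 0.11 and 0.11 on tetraploid arrays, and the median difference was -0.0094 without diploid replicate 1 and 0.32 without diploid replicate 2. The 3′ minus 5′ control probe sets, a sign of RNA quality, gave on diploid replicate 1 a value for actin of 1.59, within the range of 1.56 to 1.71 over the 5 other arrays, and for Gapdh of 0.042, the highest of the 6. For pyruvate carboxylase the fractions did not overlap, at 3.02, 3.07 and 3.19 on diploid and 2.57, 2.80 and 2.97 on tetraploid arrays, while they overlapped for the 4 other controls. The part of RNA quality in the values of the members was not tested.

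Upstream regulators carry signals from the membrane, cell junctions and cytoskeleton to the kinases. All 8 measured ones were tested, 7 were above background and 0 were called, with 5 higher, 3 lower and a median difference of 0.019. Nf2 encodes merlin, which brings LATS to the membrane. It was at 7.30, 7.36 and 7.21 on diploid and 7.20, 7.15 and 7.25 on tetraploid arrays, a difference of -0.09 ± 0.07 with overlapping fractions. Its interval ran from a 0.834-fold to a 1.06-fold level in tetraploid cells. Dimmer Nf2 probe sets, not above background, differed by -0.03, 0.07 and 0.04.

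Taok1, a kinase that activates MST, had the largest positive difference of the upstream group, at 8.12, 8.52 and 8.53 on diploid and 8.58, 8.74 and 8.52 on tetraploid arrays. Tetraploid replicate 3 fell among the diploid values, and the difference was 0.22 ± 0.13. Diploid replicate 1 was the low array, and the difference was 0.089 without it. All 4 Taok1 probe sets had a higher tetraploid mean, with differences of 0.22, 0.15, 0.19 and 0.13. Its relative Taok3 was at 9.55, 9.98 and 10.33 on diploid and 9.90, 10.37 and 10.19 on tetraploid arrays. The spread within the fractions exceeded the difference of 0.20 ± 0.20. Taok3 was also lowest on diploid replicate 1, and its difference was -0.0012 without that array.

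Wwc1 encodes KIBRA, which works with merlin, and had the largest negative difference of the group. It was at 9.23, 9.31 and 9.10 on diploid and 9.18, 8.74 and 9.31 on tetraploid arrays, a difference of -0.14 ± 0.15. Tetraploid replicate 2 was the low array, and the difference was 0.031 without it. The next brightest Wwc1 probe set differed by 0.06. Its relative Wwc2 differed by 0.0015 ± 0.085, and 2 dimmer Wwc2 probe sets differed by -0.33 and 0.26, so they disagreed in direction.

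Frmd6, a FERM-domain protein of the junctions, was the member whose fractions did not overlap, at 6.77, 6.85 and 6.76 on diploid and 6.52, 6.76 and 6.73 on tetraploid arrays. The lowest diploid and the highest tetraploid value both rounded to 6.76, and the difference was -0.13 ± 0.09. Rassf1, a scaffold that binds MST, differed by 0.04 ± 0.12. Map4k4, a kinase that acts on LATS beside MST, lay just under the background level at a mean of 6.48 and differed by 0.06 ± 0.14.

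Proteins that bind YAP, TEAD or LATS directly were the next group, with 5 of 7 tested, all 5 above background and 0 called. Their median difference was 0.047, with 3 higher and 2 lower. Amotl2 belongs to the angiomotins, which hold YAP at junctions, and is itself known as a YAP target. It was at 8.38, 7.65 and 8.42 on diploid and 8.13, 8.64 and 8.07 on tetraploid arrays. Diploid replicate 2 was the low array, the fractions overlapped, and the difference was 0.13 ± 0.23. Amot differed by -0.03 ± 0.14.

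Vgll4, which competes with YAP for TEAD, had the largest negative difference of this group. Its level was 8.01, 8.15 and 7.85 on diploid and 7.79, 7.86 and 8.25 on tetraploid arrays, and the difference of -0.04 ± 0.14 was well within the spread. The LIM proteins Ajuba and Limd1, which restrain LATS, differed by 0.10 ± 0.13 and 0.05 ± 0.07. Both Limd1 probe sets agreed, at 0.05 and 0.04. Ptpn14, a phosphatase that binds YAP, was dim at a mean of 4.13.

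Yap1 was measured with high precision by its brighter probe set. Its level was 9.51, 9.46 and 9.51 on diploid and 9.40, 9.58 and 9.41 on tetraploid arrays. The fractions overlapped, the difference was -0.03 ± 0.08, and the interval ran from 0.866-fold to 1.11-fold. A dimmer Yap1 probe set, also above background, varied more, from 6.41 to 6.95 over the arrays, and differed by 0.12 ± 0.15. Wwtr1, the gene of TAZ, was at 8.76, 8.80 and 8.88 on diploid and 8.86, 8.76 and 8.63 on tetraploid arrays, a difference of -0.07 ± 0.08 with an interval from 0.835-fold to 1.09-fold. Dimmer Wwtr1 probe sets, not above background, differed by -0.01 and 0.15.

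Of the TEAD genes, which encode the DNA-binding partners, Tead3 was above background. Tead3 was at 6.92, 6.73 and 6.81 on diploid and 6.80, 6.66 and 6.67 on tetraploid arrays, with overlapping fractions and a difference of -0.11 ± 0.08. Tead2, at 5.87, 5.74 and 5.88 on diploid and 5.67, 6.03 and 5.80 on tetraploid arrays, differed by 0.0054 ± 0.11. Tead4, at 5.29, 5.26 and 5.20 on diploid and 5.24, 5.01 and 5.14 on tetraploid arrays, differed by -0.12 ± 0.08, and Tead1 was dim at a mean of 4.73. Among the 5 tested factors 1 was higher and 4 were lower, with 0 called and a median of -0.065.

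Of the 14 measured targets, 6 were tested, 3 higher and 3 lower, with 0 called and a median difference of 0.062. Ccn1 encodes a secreted matrix protein and is a direct YAP target. It was at 9.88, 9.01 and 9.46 on diploid and 9.68, 9.36 and 8.90 on tetraploid arrays. Each fraction spanned nearly the whole range, and the difference of -0.14 ± 0.26 was smaller than its error, with an interval from 0.601-fold to 1.37-fold. A dimmer Ccn1 probe set repeated the pattern, at 7.77, 7.03 and 7.39 on diploid and 7.64, 7.28 and 7.14 on tetraploid arrays. Both Ccn1 probe sets carry a suffix (_x_ or _a_), so their probes may bind more than 1 transcript.

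Genes known to respond to cell isolation also varied within the fractions. The 14 tested genes of that list, among them Fos, Jun, Egr1 and Ier2, had means relative to their 6-array average of 0.16, -0.29 and 0.03 on diploid and 0.18, 0.05 and -0.13 on tetraploid arrays. Ccn1 followed the same order within each fraction. Amotl2 was lowest on the same array of each but did not follow the order. It was highest on diploid replicate 3 and tetraploid replicate 2, while the list was highest on replicate 1 of both fractions. Of the 15 listed genes, 12 were above background, and Fosb, Atf3 and Ier3 were not. The list ranged from -0.29 to 0.16 in diploid and from -0.13 to 0.18 in tetraploid cells, so the fractions overlapped. Its part in the values of Ccn1 and Amotl2 was not tested.

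The homologue Ccn2, also a matrix protein, was dim on the arrays, at 4.64, 4.66 and 4.47 on diploid and 4.42, 5.02 and 4.55 on tetraploid ones. Ankrd1, an ankyrin repeat protein used as a readout of YAP, was at 4.06, 4.29 and 4.31 on diploid and 4.24, 4.20 and 4.30 on tetraploid arrays. Neither gene rose above background on any array. Of the common readouts Ccn1, Ccn2 and Ankrd1, Ccn1 was therefore the one measurable here.

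Dlc1, which switches off the small GTPase RhoA, had the largest difference of all members but was not above background. It was at 5.43, 5.04 and 4.71 on diploid and 5.96, 5.07 and 5.50 on tetraploid arrays. The difference was 0.45 ± 0.25, with an interval from 0.908-fold to 2.06-fold and an unadjusted limma p of 0.115. Tetraploid replicate 2 lay among the diploid values. Leaving out each array gave differences from 0.22 without tetraploid replicate 1 to 0.67 without tetraploid replicate 2. Dlc1 is also known from stellate and endothelial cells. The stellate cell and fibroblast list (8 tested genes, 5 not above background) was at 0.12, -0.01 and -0.08 on diploid and 0.02, -0.04 and -0.01 on tetraploid arrays. That was the same order within each fraction as Dlc1. The background list of genes from other tissues (26 tested) was also highest on replicate 1 of each fraction. It was at 0.10, -0.01 and 0.01 on diploid and -0.02, -0.05 and -0.03 on tetraploid arrays, the order of Dlc1 in tetraploid cells only.

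In the stellate cell and fibroblast list 4 tested genes were higher and 4 lower in tetraploid cells, with a median difference of -0.017. Its genes Lrat, Col1a1, Col3a1 and Lum were dim, and Reln, Col1a2 and Dcn were above background. The endothelial list (11 tested genes) was at -0.06, 0.04 and -0.13 on diploid and 0.01, -0.08 and 0.22 on tetraploid arrays. In neither fraction was this the order of Dlc1. The endothelial list had 8 higher and 3 lower genes and a median of 0.13. Its genes Pecam1, Tek and Tie1 were dim, and Stab2, Clec4g, Eng and Egfl7 were above background. The part of either cell type in the value of Dlc1 was not tested.

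**Figure D3:**
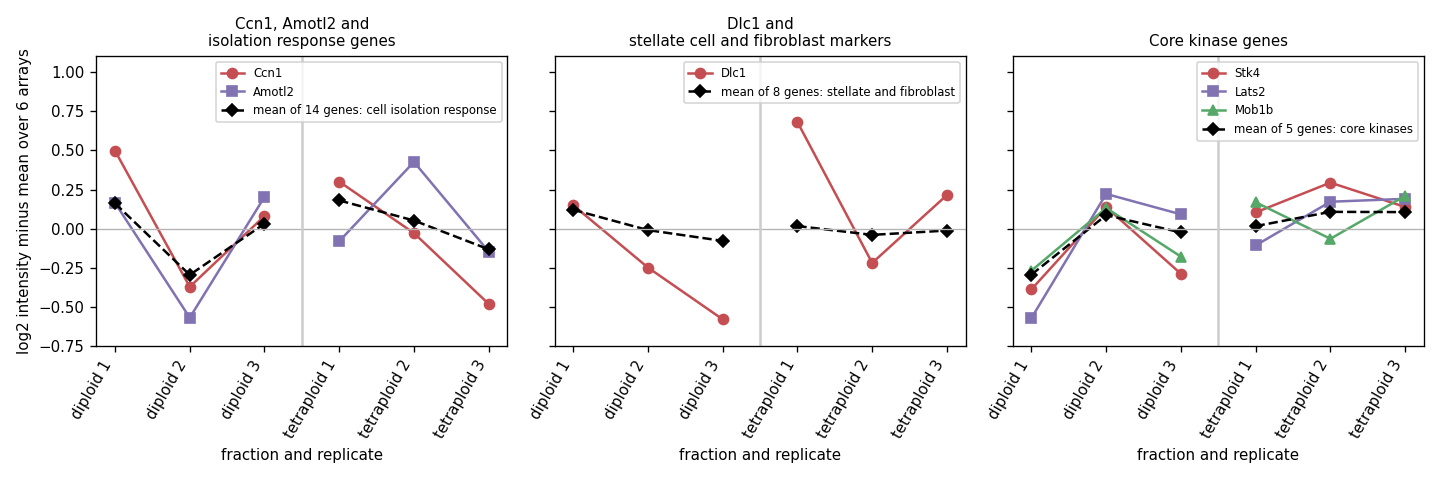
Log2 intensity minus the mean over the 6 arrays (vertical axis) on each array (horizontal axis) for Ccn1 and Amotl2 with the isolation response genes, for Dlc1 with the stellate cell and fibroblast markers, and for core kinase genes. Black diamonds are means over the tested genes of a list, which reach -0.29 for the isolation response on diploid replicate 2 and -0.29 for the core kinases on diploid replicate 1.

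Nt5e, an enzyme at the cell surface that makes adenosine, was at 7.16, 6.92 and 6.78 on diploid and 7.09, 7.30 and 7.06 on tetraploid arrays, a difference of 0.20 ± 0.12. Asap1, a regulator of Arf GTPases, was at 7.13, 6.76 and 6.84 on diploid and 7.14, 7.09 and 7.05 on tetraploid arrays, a difference of 0.19 ± 0.11. In both genes diploid replicate 1 lay among the tetraploid values and the other 2 diploid arrays lay below them. Over the fits of the closing section the difference ranged from 0.11 to 0.30 for each gene, the highest without that array. Neither gene was called by limma.

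Sox9, a transcription factor of the bile duct lineage, was not above background, at 5.86, 5.71 and 5.90 on diploid and 5.64, 5.76 and 5.80 on tetraploid arrays. Its difference was -0.09 ± 0.08. The cholangiocyte markers Krt7, Epcam and Cftr were dim and Krt19 was not above background, while the listed genes Prom1 and Mmp7 were above it. Fjx1, a secreted regulator of Fat and Dachsous cadherins, differed by -0.06 ± 0.10 and was not above background.

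The spread within the fractions was wider at the median of the members than at that of all genes. The median residual SD was 0.16 over the 29 tested members and 0.12 over all genes tested. Above the 95th percentile of that SD stood 5 members, Ccn1, Dlc1, Amotl2, Taok3 and Lats2, and above the 75th percentile 13, while 3 were below the 25th, Limd1, Nf2 and Yap1. Precision was therefore uneven within the pathway, high for the brighter Yap1 probe set and low for Ccn1 and Amotl2.

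Neither of 2 further lists of the pathway had a gene called by limma. Of 45 further Hippo regulators, 31 were measured, 25 were above background and 30 were tested, with 18 higher, 12 lower, 0 called and a median of 0.016. At an unadjusted limma p under 0.05 there were 0. The smallest p-values among the higher genes belonged to the kinase Yes1 (0.38 ± 0.24), the MOB family member Mob4 (0.19 ± 0.12) and the polarity protein Pard3 (0.14 ± 0.10). Yes1 was low on diploid replicate 1, at 7.72 against 8.57 to 8.80 on the other 5 arrays. Among the lower genes they belonged to the polarity proteins Patj (-0.21 ± 0.09, not above background) and Llgl1 (-0.09 ± 0.09) and the phosphatase scaffold Ppp2r1a (-0.10 ± 0.10).

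Of 26 further YAP targets, 25 were measured and 11 were above background, a larger part than the 3 of 14 among the member targets. Of the further targets 18 were tested, with 11 higher, 7 lower, 0 called and a median of 0.0062. An unadjusted limma p under 0.05 was reached by 4 of the 18, or 22.2%, beside 6.18% of all genes and 0 of the 6 tested member targets. Higher were the cadherin Cdh2 at 0.18 ± 0.07 and the fetal albumin homologue Afp at 0.29 ± 0.12, and lower were the TGF-beta receptor Tgfbr2 at -0.18 ± 0.07 and the matrix gene Ccdc80 at -0.22 ± 0.08. Their adjusted p-values lay between 0.779 and 0.794. The fractions did not overlap for any of these 4, or 22.2% of the 18, beside 12.3% of all genes. Cdh2 was at 10.89, 11.02 and 11.01 on diploid and 11.20, 11.15 and 11.12 on tetraploid arrays. Afp was at 6.94, 7.37 and 7.32 against 7.56, 7.44 and 7.53, with diploid replicate 1 the low array. Tgfbr2 was at 8.27, 8.24 and 8.27 against 8.02, 8.15 and 8.08. Ccdc80, which was not above background, was at 5.67, 5.54 and 5.61 against 5.29, 5.37 and 5.52. Next in p came Notch2 (0.14 ± 0.09) among the higher and Tgfb3 (-0.22 ± 0.13) among the lower.

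**Figure D4:**
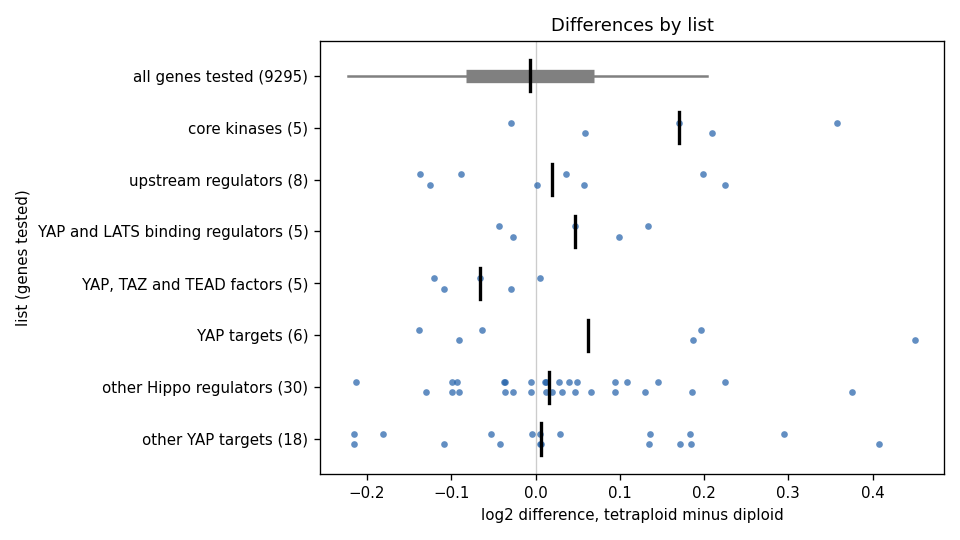
Log2 difference of tetraploid minus diploid (horizontal axis) for the tested genes of each list (points) with the list's median (black bar), and for all 9295 genes (thick line from the 25th to the 75th percentile, thin line from the 5th to the 95th). The core kinases have a median of 0.17 and the other lists have medians between -0.065 and 0.062, beside -0.0064 for all genes.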

How the data were processed

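RNA of 6 sorted hepatocyte samples was read on Affymetrix arrays. The deposited table gives 1 linear intensity per probe set, made by the authors with RMA per the submitters' processing notes and with no version stated there. Values above the range of log2 data, with array medians from 85.9 to 88.7, showed a linear scale, and log2 was taken. Arrays correlated at 0.992 to 0.997 (15 pairs, across probe sets), and their number limits precision.

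Of 22690 probe sets 64 controls were left out, and 20380 had 1 symbol, 691 several and 1555 none. Symbols were matched to RefSeq (GRCm38.p6, 20351 matched). The brightest probe set stood for each of 12393 genes, the lowest 25% were left out and 9295 were tested with limma 3.58.1 in R 4.3.3 (lmFit, eBayes, two-sided, Benjamini-Hochberg over all). The procedure was tested on simulated data with changes larger than any seen in the members, so power at the members' differences was not tested. Of the 29 tested members, 10 were read through probe sets with an _s_, _x_ or _a_ suffix, whose probes may bind more than 1 transcript. Among 18 tested members with over 1 probe set, 10 had a probe set whose difference was of opposite sign to the one used.

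The members and lists were chosen with earlier results of these data known. Every tested member is named; values by array are given for core kinases, Nf2, factors, main targets, members at p under 0.05 and the extremes of each role, and for some others picked with values in view. From both further lists the 3 smallest p-values in each direction are named. Alternatives covered the filter, probe sets, scale, normalization, model and each array.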

Additional observations from a re-analysis of the deposited data

How the results depend on the processing

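Called members numbered 0 in every fit run by limma, as did called genes of both further lists. The count of members at an unadjusted p under 0.05, 1 in the report, was 0 with the lowest 50% of genes left out, 4 probe sets with every probe set on its own, 2 with the replicate block, where Dlc1 joined Stk4, and 0 to 3 when leaving out each array. The median difference of the core kinases ranged from -0.0094 to 0.32 when leaving out each array, that of the factors from -0.12 to -0.0075, that of further YAP targets from -0.029 to 0.092 and that of further Hippo regulators from 0.019 to 0.040. The factors had a median of 0.0054 with the mean of all probe sets and -0.019 with every probe set. The proteins binding YAP or LATS had -0.027 with only unsuffixed probe sets. Further Hippo regulators had 0.047 with the mean of all probe sets, 0.043 with unsuffixed and 0.052 with every probe set, and further YAP targets 0.071 with the lowest 50% left out. The cause was not tested. Members above background, 22 in the report, numbered 16 to 29 over the alternatives. The sign of the difference was the same in every fit for 13 members and changed in at least 1 for 16.

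Whether replicate numbers pair the arrays could not be settled from so few arrays, and the labels name no animals. Deviations from the group means correlated at 0.57, -0.20 and -0.20 for same-numbered arrays 1 to 3, and not every array correlated best with its own number. Diploid replicate 3 correlated best with tetraploid replicate 2, at 0.69, and diploid replicate 2 with tetraploid replicate 3, at 0.38. No label ties these arrays, and no such pairing was fitted. Dim genes limit what can be said of 11 members.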
